A study of Rattus norvegicus with 9 samples.

Results

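Complement is a cascade of plasma and membrane proteins, and 9 of its genes were followed here through ischemia and reperfusion of the rat heart: C1qa, C1qb, C1qc, C1r, C1s, C3, Cfb, Serping1 and C5ar1. For each gene, the probe set that carries its symbol alone was taken and, where there were several, the one with the highest mean over the 9 arrays. This gave 8 of the 9 genes, among 21013 genes with such a probe set, and each of the 8 had 1 probe set. Cfb, which encodes factor B, was not analysed here.

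RNA of the cardiac left ventricle of male Wistar rats was measured on 9 arrays, 3 in each of 3 groups. In the IRI + RPostC group (remote ischemic postconditioning), the left anterior descending coronary artery was occluded for 45 min. The left femoral artery was then clamped for 30 s and reopened for 30 s, in 3 cycles, and 15 min of stabilization followed. In the IRI group (ischemia and reperfusion injury) the same coronary artery was blocked for 45 min and the heart stabilized for 15 min. In the control group a thread was laid under the vessel without closing it and closure of the chest followed at 60 min, so all 3 groups had the chest opened. A general account of the operation states 30 min of ligation instead. The age of the rats, the time at which tissue was taken for RNA and its position relative to the infarct are not given in the sources read, which also do not state that each array stands for a different rat. The p-values therefore measure only how these arrays spread, and with 3 arrays a group precision is limited.

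The classical pathway of complement starts when C1q, a bundle of A, B and C chains, binds antibody, C-reactive protein or damaged cells. The serine proteases C1r and C1s, bound to C1q, then cut C4 and C2, and the C1 inhibitor encoded by Serping1 shuts both proteases down. All pathways meet at C3, whose cleavage marks surfaces for uptake and leads to the release of C5a, a peptide that draws and activates neutrophils and macrophages through the receptor C5ar1. The liver makes most plasma C3, tissue macrophages are a main source of C1q, and fibroblasts and endothelial cells make several components locally.

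All values are log2 signals as deposited, so a difference of 1 is a doubling, and levels are compared only within a probe set. The 65403 probe sets other than controls were fitted together with limma, and a gene was called where p, adjusted over all of them by the Benjamini-Hochberg method, was under 0.05. A probe set was taken as not above background in a group whose arrays all lay at or under 4.91, the 95th percentile of 270 olfactory, vomeronasal and taste receptor probe sets, a limit set after values were seen. The array medians were 4.36 to 4.46 with IRI + RPostC, 4.38 to 4.50 with IRI and 4.51 to 4.55 in control. The 4 hybridization controls, added transcripts of bacteria and phage, averaged 10.44 with IRI + RPostC, 10.42 with IRI and 11.21 in control. Each IRI + RPostC array held 1944 to 1948 probe sets at 19 or above and each IRI array 1918 to 1948, against 166 to 172 on each control array. Coronary occlusion and this difference in the arrays cannot be told apart. Of all called probe sets, 60.7% were higher in IRI + RPostC than in control, a share that was 35.4% under quantile normalization and 75.8% when array medians were set equal. For IRI against control these shares were 61.4%, 34.7% and 71.8%. Both comparisons use the same 3 control arrays.

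RefSeq (GRCr8) gave the 250 bases before the start of 4 of the 9 genes, C1qa, C1qb, C1r and C3. Those of C1r and C3 are shown because these 2 genes changed in opposite directions against control. The C1r window lies at chr4:159098763-159099012 on the plus strand and the C3 window at chr9:2201340-2201589 on the minus strand. Capitals mark the match to a C/EBP motif, TTGCNNAA, searched on both strands. C/EBP factors are regulators of acute phase genes.
C1r: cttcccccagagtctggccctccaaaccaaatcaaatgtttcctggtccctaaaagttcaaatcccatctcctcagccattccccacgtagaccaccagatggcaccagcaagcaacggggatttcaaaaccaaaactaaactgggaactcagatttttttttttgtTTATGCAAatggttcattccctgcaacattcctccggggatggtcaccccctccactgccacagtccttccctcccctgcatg
C3: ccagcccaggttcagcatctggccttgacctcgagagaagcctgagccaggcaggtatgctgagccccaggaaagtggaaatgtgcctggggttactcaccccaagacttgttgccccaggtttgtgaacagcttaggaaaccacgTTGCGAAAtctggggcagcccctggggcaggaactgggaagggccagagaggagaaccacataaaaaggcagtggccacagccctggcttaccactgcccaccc
The match lies at bases -83 to -76 from the start in C1r, where it reads on the reverse strand, and at bases -104 to -97 in C3. At least 1 such match was present in 9.22% of 33469 rat promoter windows of this length. The STAT motif TTCNNNGAA matched once in the C1qa window, at bases -90 to -82, and in 7.67% of all windows. An interferon response motif, read as GAAA, 2 free bases and GAAA (3.41% of all windows), the AP-1 motif TGANTCA (6.34%) and an NF-kappaB motif, read as GGGA, 1 free base and TTTCC (0.314%), matched in none of the 4. These matches are descriptions of the letters and not of binding. On the same assembly C1r and C1s are neighbours on chromosome 4, and C1qb, C1qc and C1qa lie in a row on chromosome 5, with 0 protein-coding genes between neighbours in either cluster.

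Against control, 4 of the 8 measured genes were called in the IRI + RPostC group, 3 higher (C1r, C1s and C5ar1) and 1 lower (C3). Of all probe sets, 17.7% were called in this comparison, 10.7% higher and 6.95% lower, and with 1 probe set a gene, taken as for the members, 10.2% were higher and 9.84% lower. In the IRI group 3 of the 8 were called, C1r and C1s higher and C3 lower, where the share over all probe sets was 16.2% (9.95% higher and 6.26% lower), and 8.90% and 9.42% with 1 probe set a gene. The arrays did not overlap for 5 genes higher and 1 lower in IRI + RPostC (15.6% and 17.3% of all probe sets), and for 4 higher and 2 lower in IRI (14.8% and 14.6%). The median difference over the 8 genes was 0.52 for IRI + RPostC and 0.21 for IRI, beside -0.061 and -0.038 over all probe sets. The plot of signal by array shows that only C1r and C1s stood more than 2 log2 units from the control arrays.

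**Figure D1:**
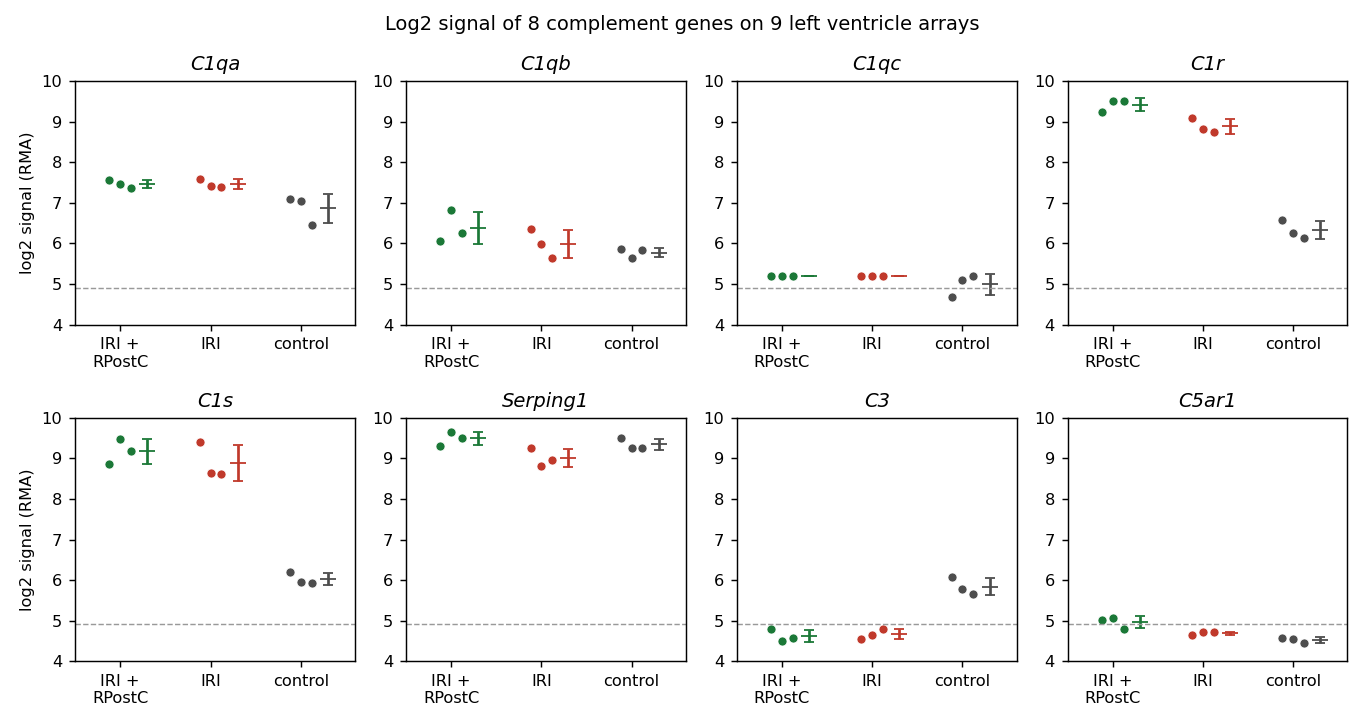
Log2 signal of the 8 measured complement genes (vertical axis) on each array of the IRI + RPostC, IRI and control groups (left to right), with points for arrays, bars for the mean ± SD of 3 arrays and a dashed line at the background limit of 4.91. C1r and C1s stand far above their control arrays in both occlusion groups, C3 lies below its control arrays and under the limit, and C1qc has the same value on 7 arrays.

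The proteases of the C1 complex showed the largest differences among the 8 genes. C1r, which activates C1s, had log2 signals of 9.24, 9.51 and 9.50 with IRI + RPostC, 9.08, 8.83 and 8.74 with IRI and 6.57, 6.27 and 6.14 in control. All 6 arrays with coronary occlusion were above the 3 control arrays, and the 3 IRI + RPostC arrays were also above the 3 IRI arrays. C1r averaged 9.42 ± 0.15 in IRI + RPostC, 8.89 ± 0.18 in IRI and 6.33 ± 0.22 in control (SD, n = 3 each). It was 8.52-fold higher in IRI + RPostC than in control (log2 difference 3.09, SE 0.14, limma adjusted p = 3.93e-06) and 5.89-fold higher in IRI than in control (2.56, SE 0.14, adjusted p = 1.21e-05).

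C1s, the protease that cuts C4 and C2, had log2 signals of 8.86, 9.47 and 9.19 with IRI + RPostC, 9.39, 8.64 and 8.61 with IRI and 6.21, 5.97 and 5.93 in control. Every array of both occlusion groups was above every control array, while the IRI + RPostC and IRI arrays overlapped because IRI replicate 1 was nearly as high as the highest IRI + RPostC array. The means were 9.18 ± 0.31, 8.88 ± 0.44 and 6.04 ± 0.15 for IRI + RPostC, IRI and control (SD, n = 3 each). C1s was 8.82-fold higher in IRI + RPostC than in control (log2 difference 3.14, SE 0.24, limma adjusted p = 8.59e-05) and 7.20-fold higher in IRI than in control (2.85, SE 0.24, adjusted p = 0.000159). Both proteases kept these calls under all 20 alternative settings, with differences for C1r of 2.31 to 3.86 in IRI + RPostC and 2.00 to 3.35 in IRI, and for C1s of 2.44 to 3.91 and 2.34 to 3.64.

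The recognition chains, unlike the proteases, did not pass the adjusted threshold in either comparison with control. C1qa, the A chain, had 7.55, 7.47 and 7.35 with IRI + RPostC, 7.60, 7.41 and 7.39 with IRI and 7.09, 7.05 and 6.45 in control. Its 6 arrays from occluded hearts lay above all 3 control arrays, of which replicate 3 was the lowest. The difference from control was 0.60 for IRI + RPostC (95% interval 0.19 to 1.00, limma adjusted p = 0.055) and 0.60 for IRI (0.20 to 1.00, adjusted p = 0.0563). These 2 values are near the threshold and crossed it under 7 and 6 of the 20 alternatives, among them equal array medians. Leaving out control replicate 1 or 3 gave an adjusted p of 0.0435 and 0.0272 for IRI + RPostC and 0.0451 and 0.0273 for IRI, while the difference was -0.059 and 0.052 after quantile normalization.

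C1qb, the B chain, had 6.06, 6.83 and 6.27 with IRI + RPostC, 6.35, 5.98 and 5.65 with IRI and 5.85, 5.65 and 5.83 in control. The IRI + RPostC arrays were all above the control arrays, whereas the IRI arrays overlapped both other groups. Its difference from control was 0.61 for IRI + RPostC (SE 0.24, limma adjusted p = 0.132) and 0.22 for IRI (SE 0.24, adjusted p = 0.593), and the IRI value was -0.041 after quantile normalization.

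C1qc, the C chain, gave little to compare. It had 5.19 on all 3 IRI + RPostC arrays, on all 3 IRI arrays and on control replicate 3, and 4.69 and 5.10 on the other control arrays. Repeated values of this kind also occurred outside complement, since 929 of the 65403 probe sets had 1 value on all 9 arrays. The difference from control was 0.20 in both occlusion groups (adjusted p = 0.296 for IRI + RPostC and 0.325 for IRI), and it rests on control replicates 1 and 2. The 3 chains are encoded side by side and work in 1 protein, yet their differences from control ran from 0.20 to 0.61 in IRI + RPostC and from 0.20 to 0.60 in IRI.

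The plot of differences sets the 3 comparisons beside each other with their intervals.

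**Figure D2:**
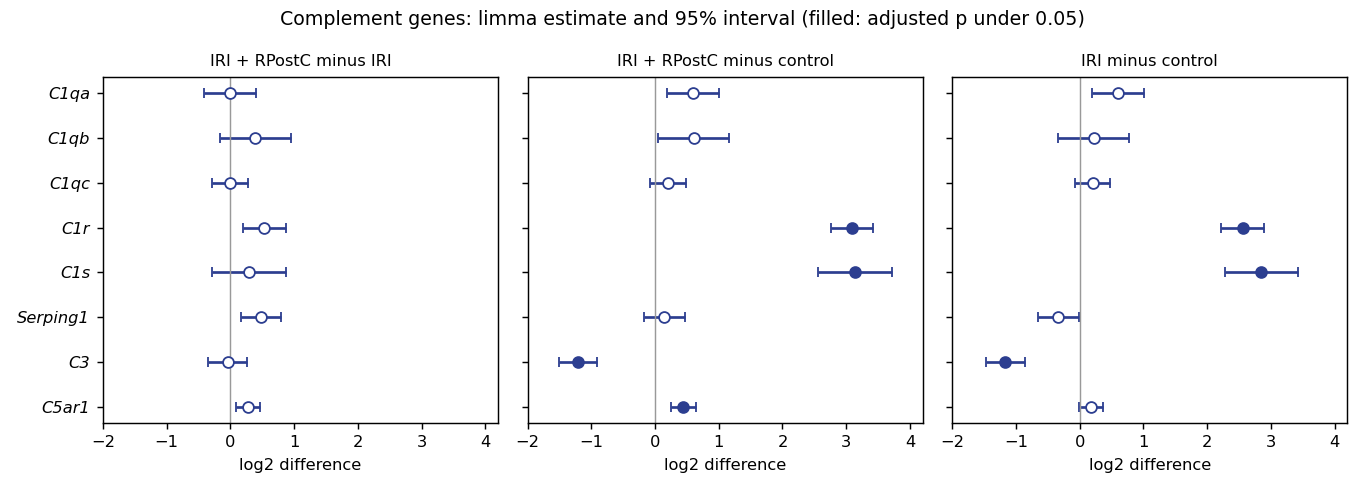
Log2 difference of each of the 8 complement genes (horizontal axis) in 3 panels, IRI + RPostC minus IRI, IRI + RPostC minus control and IRI minus control, with points for the limma estimate, bars for the 95% interval and filled points for an adjusted p under 0.05. C1r and C1s lie near 3 log2 units in both control panels, C3 lies near -1.2, and no point is filled between IRI + RPostC and IRI.

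Serping1 encodes the C1 inhibitor, which blocks C1r and C1s and also kallikrein and factor XII of the contact system. It had 9.31, 9.64 and 9.51 with IRI + RPostC, 9.24, 8.82 and 8.96 with IRI and 9.50, 9.26 and 9.26 in control. The IRI arrays lay below all control arrays and below all IRI + RPostC arrays, and the IRI + RPostC and control arrays overlapped. The means were 9.49 ± 0.16, 9.01 ± 0.22 and 9.34 ± 0.14 for IRI + RPostC, IRI and control (SD, n = 3 each). The difference from control was 0.15 in IRI + RPostC (limma adjusted p = 0.495) and -0.34 in IRI (SE 0.14, adjusted p = 0.161), and neither passed the threshold. Its direction turned with the scaling: the 2 differences were -1.88 and -2.16 after quantile normalization (adjusted p = 3.17e-05 and 1.37e-05) and 0.92 and 0.45 when each array was shifted to its hybridization controls.

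C3, the protein on which all complement pathways converge, was the only one of the 8 genes that was called lower. Its log2 signals were 4.80, 4.50 and 4.58 with IRI + RPostC, 4.55, 4.65 and 4.80 with IRI and 6.07, 5.79 and 5.65 in control. The probe set was above background on the 3 control arrays and not above background on any of the 6 others, so only a bound can be given. C3 averaged 4.63 ± 0.16 in IRI + RPostC, 4.67 ± 0.12 in IRI and 5.84 ± 0.21 in control (SD, n = 3 each). By the group means, control was at least 1.9-fold higher than either occlusion group, a bound without their spread. The measured differences were -1.21 for IRI + RPostC (limma adjusted p = 0.000513) and -1.17 for IRI (adjusted p = 0.000658). Leaving out any 1 array kept both calls. When each array was shifted to its hybridization controls, which were brighter on the control arrays, the differences were -0.44 (adjusted p = 0.16) and -0.38 (adjusted p = 0.213), a shift that moved the median of all probe sets up by 0.77 and 0.79. Both calls were kept after quantile normalization and with equal array medians.

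C5ar1 encodes the receptor for C5a on neutrophils, macrophages and other cells. It had 5.03, 5.08 and 4.79 with IRI + RPostC, 4.64, 4.71 and 4.72 with IRI and 4.58, 4.55 and 4.44 in control. It was above background on 2 of the 3 IRI + RPostC arrays and not above background in the other groups, and its groups did not overlap, with IRI + RPostC highest and control lowest. IRI + RPostC was at least 1.04-fold higher than control (measured difference 0.45, SE 0.08, limma adjusted p = 0.00789), a bound without their spread. The IRI group differed from control by 0.17 (adjusted p = 0.225), with both groups under the limit. The call in IRI + RPostC was lost with the methods' t-test (adjusted p = 0.0753).

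The plot of scalings shows which of these differences from control depend on how the arrays are set on 1 scale.

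**Figure D3:**
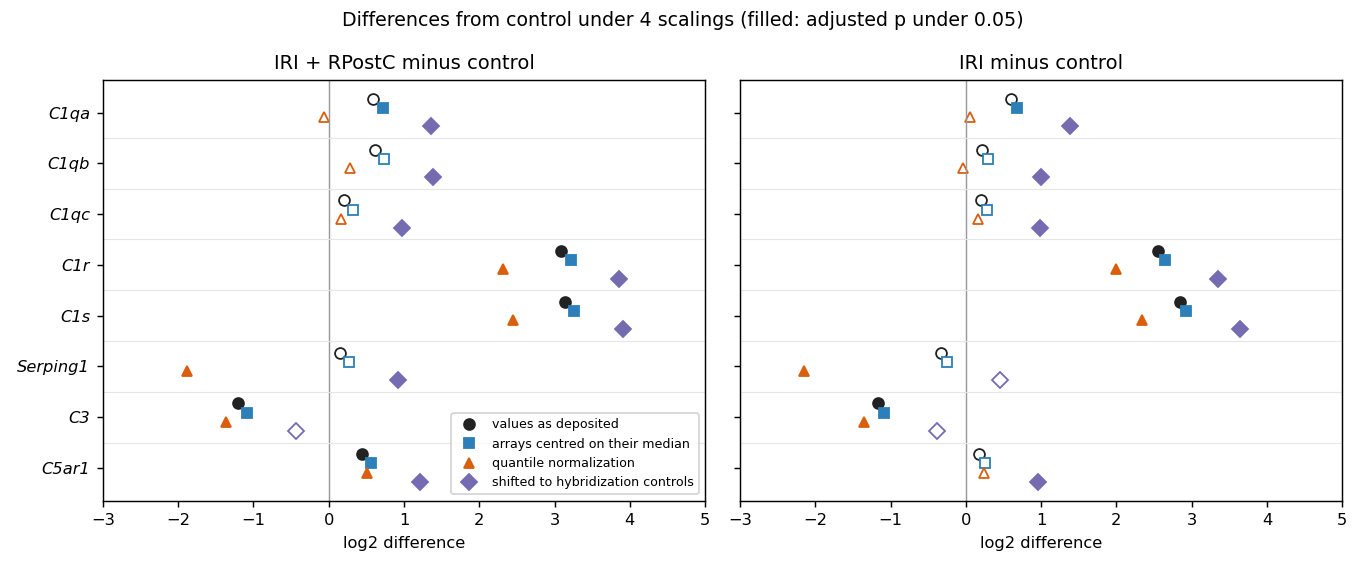
Log2 difference from control (horizontal axis) of the 8 complement genes (1 row each) in the IRI + RPostC panel (left) and the IRI panel (right) under 4 scalings, namely the deposited values, quantile normalization, equal array medians and a shift of each array to its hybridization controls, with filled markers for an adjusted p under 0.05. C1r and C1s stay at 1.995 log2 units or more under each scaling, Serping1 is at -1.88 and -2.16 after quantile normalization and above 0 after the shift, and C3 stays below 0 throughout.

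The effect of RPostC on hearts with the same coronary occlusion is addressed by IRI + RPostC against IRI. None of the 8 genes passed the adjusted threshold in limma, nor did any of the 65403 probe sets (0.00%), and the methods' t-test with the same adjustment called 0 of the 7 genes it could test. At an unadjusted p under 0.05 limma and the methods' t-test each gave 3 genes higher in IRI + RPostC and 0 lower, where 1.71% of all probe sets were higher in limma. Quantile normalization gave 2 and the shift to hybridization controls gave 0 at this threshold. The 3 were C1r, Serping1 and C5ar1, and for the same genes every IRI + RPostC array lay above every IRI array, which held for 2.63% of all probe sets in this direction. C1r was 1.45-fold higher (log2 difference 0.53, 95% interval 0.20 to 0.87, unadjusted p = 0.00688, adjusted p = 1). Serping1 was 1.40-fold higher (0.48, interval 0.16 to 0.80, unadjusted p = 0.00897, adjusted p = 1). C5ar1, not above background with IRI, was at least 1.04-fold higher by the group means, a bound without their spread (measured difference 0.27, interval 0.08 to 0.46, unadjusted p = 0.0111, adjusted p = 1). These 3 differences stayed above 0 in all alternatives that could be run, at 0.32 to 0.63 for C1r, 0.28 to 0.60 for Serping1 and 0.22 to 0.36 for C5ar1. The fit after the shift to hybridization controls gave larger errors. For C1r, Serping1 and C5ar1 in IRI against control the SE was 0.29 each, beside 0.14, 0.14 and 0.08 as deposited.

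The other 5 genes overlapped between IRI + RPostC and IRI. The intervals were -0.16 to 0.95 for C1qb, around 0.39, and -0.28 to 0.87 for C1s, around 0.29. For C1qa the difference was -0.0069 (95% interval -0.41 to 0.40) and for C3 it was -0.039 (-0.34 to 0.26), with both groups not above background for C3. The intervals of C1qb and C1s include a difference of the size seen in C1r, 0.53, while that of C1qa does not. This size comes from the same arrays and is the largest estimate among the measured members in this comparison. The C3 interval cannot exclude such a difference, because it describes signal that was not above background. C1qc was 5.19 in both groups.

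Within a group, several of the 8 genes were high on the same array. IRI replicate 1 was the highest IRI array for 5 genes (C1qa, C1qb, C1r, C1s and Serping1), and IRI + RPostC replicate 2 was the highest of its group for 5 (C1qb, C1r, C1s, Serping1 and C5ar1). Control replicate 1 was the highest control array for 7 of the 8, all but C1qc. Without IRI replicate 1 the C1s difference between IRI + RPostC and IRI was 0.55, and the range over all alternatives was 0.10 to 0.55, with an adjusted p of 0.718 to 1.

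The rest of the cascade was read from lists of 53 further complement genes, of which 42 were measured and 20 were above background on at least 1 array. In IRI + RPostC 7 of the 42 were higher than in control and 0 lower. In IRI 8 were higher and 0 lower, the same 7 (C7, Cd55, Cr1l, Clu, Vtn, Cd93 and Thbd) and Cfd. With 1 probe set a gene, the shares over all genes were 10.2% higher and 9.84% lower in IRI + RPostC. In IRI these shares were 8.90% and 9.42%. The median of the 42 differences was 0.0011 in IRI + RPostC and 0 in IRI. Shifting each array to its hybridization controls, where the median over all probe sets moved by 0.77 and 0.79, called 36 of the 42 higher in IRI + RPostC and 41 in IRI. Of all 65403 probe sets, this shift called 41158 higher in IRI + RPostC and 47009 in IRI.

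In the terminal pathway, which builds the membrane attack complex, C7 was the only one of 7 genes above background, and C5, C6, C8a, C8b, C8g and C9 were under the limit on all 9 arrays. C7, which inserts the growing complex into membranes, had 14.62, 15.21 and 14.84 with IRI + RPostC, 13.99, 13.98 and 13.65 with IRI and 7.42, 7.19 and 6.73 in control. The 3 groups did not overlap. It was 219-fold higher in IRI + RPostC than in control (log2 difference 7.78, limma adjusted p = 4.33e-07) and 108-fold higher in IRI (6.76, adjusted p = 7.28e-07), and 2.03-fold higher in IRI + RPostC than in IRI (unadjusted p = 0.0022, adjusted p = 0.987). The size of the difference from control depended on the scaling, at 5.71 to 8.55 and 5.16 to 7.55, while its call did not.

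Of 14 regulators measured, 4 were higher in both occlusion groups. Cd55, the decay accelerating factor that takes C3 convertases apart, had 9.38, 8.49 and 9.44 with IRI + RPostC, 8.36, 8.36 and 8.60 with IRI and 5.46, 5.16 and 5.76 in control. It was 12.5-fold higher in IRI + RPostC (log2 difference 3.64, adjusted p = 7.08e-05) and 7.87-fold higher in IRI (2.98, adjusted p = 0.000241), and no occlusion-group array overlapped a control array. Vtn, whose product vitronectin keeps the terminal complex out of membranes, differed from control by 1.08 in IRI + RPostC (adjusted p = 0.000246) and 0.89 in IRI (adjusted p = 0.000755). Clu, or clusterin, which acts on the same step, had 12.45 on all 3 IRI + RPostC arrays and on 2 IRI arrays, 12.51 on the third, and 10.16, 10.17 and 10.63 in control, a difference of 2.13 for IRI + RPostC and 2.15 for IRI that became -2.53 and -2.34 after quantile normalization.

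Thbd, or thrombomodulin, was not above background in control. By the group means it was at least 2.33-fold higher in IRI + RPostC (limma adjusted p = 0.0189). In IRI it was at least 2.11-fold higher (adjusted p = 0.03). Both are bounds without the spread of the arrays. The measured log2 differences were 1.62 (interval 0.78 to 2.46) and 1.47 (interval 0.63 to 2.31), so smaller differences are not excluded. The calls were lost under 4 and 9 of the 20 alternatives. Leaving out control replicate 1 or 3 ended both calls (adjusted p = 0.0599 and 0.0539 for IRI + RPostC, 0.0881 and 0.0774 for IRI), and leaving out control replicate 2 or any 1 IRI array ended that in IRI (adjusted p = 0.0527 to 0.0821). Among 7 receptors Cr1l was called, the rodent membrane regulator Crry that blocks C3 deposition on host cells. Cr1l had 9.11, 8.78 and 8.76 with IRI + RPostC, 9.05, 8.53 and 8.66 with IRI and 6.40, 5.99 and 5.79 in control, a 7.06-fold difference in IRI + RPostC and a 6.43-fold difference in IRI (adjusted p = 5.13e-05 and 7.09e-05).

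The lists of early steps hold the remaining genes. In the classical list of 3 measured genes, Cd93, a membrane protein of endothelial and myeloid cells once described as a C1q receptor, was higher by 1.78 in IRI + RPostC (adjusted p = 0.00275) and 1.37 in IRI (adjusted p = 0.0105, lost with the methods' t-test at 0.0624), and C1qbp, the gC1q-binding protein, differed by 0.078 in both with 1 value shared by 7 arrays. None of 9 lectin pathway genes was called, and Colec12, a scavenger receptor of the collectin family, had 7.08 ± 0.02 in IRI + RPostC, 7.04 ± 0.04 in IRI and 7.11 ± 0.04 in control. Of the 2 alternative pathway genes measured, Cfd, which encodes the factor B protease factor D, differed from control by 0.21 in IRI + RPostC (adjusted p = 0.0593) and by 0.28 in IRI (adjusted p = 0.0224). The Cfd call in IRI was lost under 6 of 19 alternatives. Among them were quantile normalization (adjusted p = 0.172), the methods' t-test (adjusted p = 0.126) and leaving out control replicate 1 or 3 (adjusted p = 0.0621 and 0.0591). Without control replicate 2 or IRI replicate 1 Cfd was called in IRI + RPostC (adjusted p = 0.0485 and 0.0265). Between IRI + RPostC and IRI 0 of the 42 passed the adjusted threshold in limma. At an unadjusted p under 0.05, 2 (C7 and Cd55) were higher in limma, where 1.71% of all probe sets were higher. The methods' t-test gave 1 of the 36 it could test, without a share over all probe sets.

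**Figure D4:**
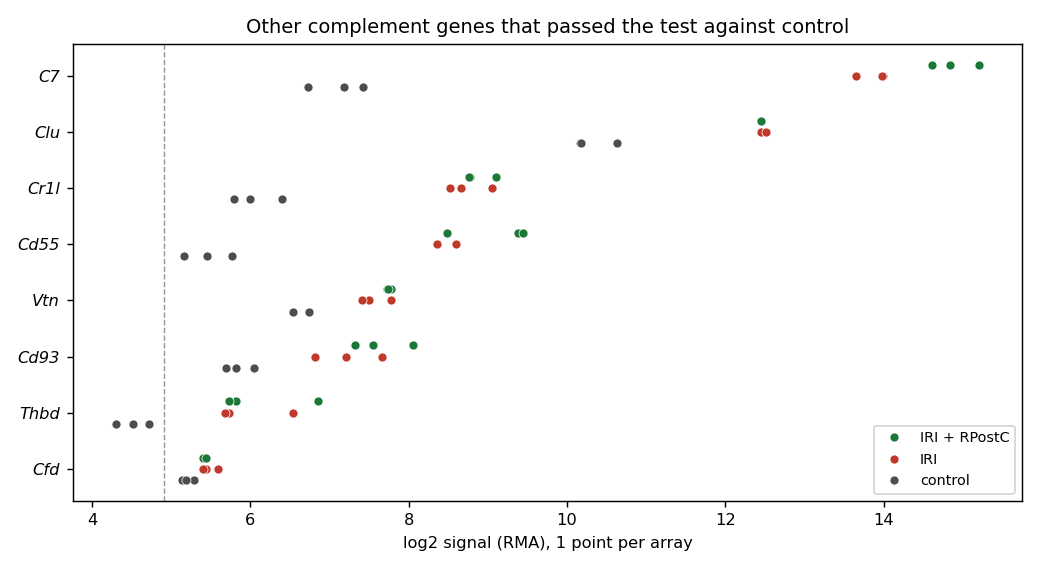
Log2 signal (horizontal axis) of the 8 other complement genes that were called against control in at least 1 comparison (1 gene a row), with 1 point for each array of the IRI + RPostC, IRI and control groups (top to bottom within a row) and a dashed line at the background limit of 4.91. C7 lies near 14 to 15 on all 6 occlusion-group arrays and near 7 in control, and the control arrays of Thbd lie under the limit.

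In whole tissue, a change in the number of cells of a type and a change in RNA per cell cannot be told apart, so marker lists were read beside the complement genes. The monocyte and macrophage list, 12 of 14 genes measured, had a mean log2 signal of 6.08 to 6.22 with IRI + RPostC, 5.88 to 6.03 with IRI and 5.56 to 5.68 in control. Against control 5 of the 12 were higher in IRI + RPostC (Ptprc, Mrc1, Lyz2, Cd14 and Laptm5) and 3 in IRI (Ptprc, Cd14 and Laptm5). Ms4a7, Cx3cr1 and Tyrobp were under the limit in all groups, and the macrophage receptor Csf1r differed from control by 0.037 and 0.0058. Ptprc, the leukocyte antigen CD45, differed by 2.11 in IRI + RPostC and 1.97 in IRI, and the macrophage mannose receptor Mrc1 by 2.04 and 1.36 (adjusted p = 0.0553 in IRI).

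The neutrophil list of 12 had 5.12 to 5.48 with IRI + RPostC, 5.15 to 5.34 with IRI and 4.60 to 4.63 in control, and 4 were higher in both (S100a8, S100a9, Lcn2 and Mmp8). Mpo, Fpr1, Camp, Ltf and Fcgr3a were under the limit in all groups. Markers of stromal cells also differed. The fibroblast list of 8 had 9.08 to 9.14 with IRI + RPostC, 8.79 to 8.85 with IRI and 7.53 to 8.10 in control, with 5 higher in IRI + RPostC and 4 in IRI, and none under the limit. Dcn, or decorin, carried most of the difference from control in this list mean, at 18.82 on all 6 occlusion-group arrays against a mean of 12.37 in control. Postn, or periostin, differed from control by -0.85 in IRI + RPostC (adjusted p = 0.423) and -2.10 in IRI (adjusted p = 0.0838), and Col1a1 by 0.041 and 0.019. The endothelial list of 5 had 9.94 to 10.13, 9.61 to 10.63 and 7.86 to 8.32 in the same order of groups, with 3 higher in each. Pecam1, the endothelial antigen CD31, carried most of the difference from control in this list mean. It differed from control by 7.31 in IRI + RPostC and 7.01 in IRI, and Tie1 by 0.099 and 0.11. The part of these cell types in the complement differences was not tested.

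The liver list of 5 differed little, at 4.67 to 4.69 with IRI + RPostC, 4.66 to 4.74 with IRI and 4.67 to 4.73 in control, with 0 called and Alb, Fgb and Serpina1 under the limit in all groups. T and B cell markers (7) had 4.66 to 4.68, 4.59 to 4.67 and 4.60 to 4.65. Of these only Cd4 was called, higher in IRI + RPostC, and Cd3e, Cd3d, Cd8a and Ms4a1 were under the limit in all groups. Mast cell markers (4) had 5.19 to 5.41, 5.32 to 5.50 and 5.15 to 5.22, with 0 called. Smooth muscle markers (5) had 9.71 to 10.18, 9.65 to 10.74 and 10.47 to 10.69, with 1 lower in each occlusion group, and red cell markers (2) had 6.18 to 6.24, 6.13 to 6.17 and 6.71 to 7.19, with Alas2 lower in both. Cardiac muscle, though not the chamber, was borne out by the cardiomyocyte list of 8, all above background on all arrays. Its mean was 16.27 to 16.33 with IRI + RPostC, 16.24 to 16.34 with IRI and 15.68 to 15.81 in control, with 2 higher in each occlusion group.

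The genes outside complement whose signal ran most like each member were taken by Pearson's r over the 9 arrays among 5279 genes, as a description in which the group difference is shared by all points. For C1r these were Gnai3, Tut7 and Washc4 (r = 1.00 for Gnai3), and for C1s Ctsh, Zmym5 and Secisbp2l (r = 1.00 for Ctsh), with 1276 and 1273 genes above an r of 0.9. For C3 they were Hspd1-ps2, Septin4 and Vldlr (r = 0.99 each), with 443 genes above 0.9. The other members had fewer such genes, 196 for C1qa (B3gnt2, Map3k2 and Pnp), 29 for C1qb (Mib1, Igip and Eno1-ps30), 27 for C1qc (Ints14, Akap1 and Dsp), 25 for C5ar1 (Nrarp, Ets2 and Wls) and 4 for Serping1 (Epc2, Ifitm2 and Ephx1).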

How the data were processed

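RNA, purified by the authors with TRIzol and an RNeasy kit, was hybridized, and the authors processed the scans by robust multichip analysis (RMA). The deposited values were taken as log2 signals. The methods name the Rat Gene 2.0 ST chip and the series text a human array; the software version, the annotation and whether all 9 arrays were normalized together are not stated in the sources read. Arrays were grouped by their labels. Of 65526 probe sets, 123 controls were left out. The 3 groups were fitted with limma 3.58.1 (lmFit, eBayes) in R 4.3.3 without a filter, and p was adjusted over 65403 probe sets. Sequences, tables and figures were handled in Python 3.11.15 with pandas 2.3.3, numpy 2.4.6 and matplotlib 3.10.9. The fit was tested on simulated data.

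The genes and lists were chosen with earlier results of these data known. Named were the 9 genes, other complement genes called in any comparison, the gene of highest mean in each list, and the 3 genes most like each member (mean of at least 6, no array at 19 or more).

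Alternatives were quantile normalization, centring, array weights, 2 groups fitted alone, trend and robust settings, filters at a mean of 6 and at 19, the mean of a gene's probe sets, the methods' t-test, a replicate block, leaving out each array, and a shift to hybridization controls. C2, C4a, C4b, C1ra, C1s2, Itgb2, Cd59 and Cd59b were not analysed here, and further items are not reported here.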

Additional observations from a re-analysis of the deposited data

How the results depend on the processing

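Of the 20 alternatives, all kept the calls of C1r, C1s, C7, Cr1l, Cd55 and Vtn against control. Counts of called members moved by over 1.5 times under 3 and by at most 1 gene under others. Quantile normalization gave 2 lower instead of 1 against control for both IRI + RPostC and IRI, Serping1 being the addition. Keeping only probe sets with a mean of at least 6 left 5 members and 0 lower, since C3, C5ar1 and C1qc were removed by it. The shift to hybridization controls, chosen after seeing the data, gave 7 higher in IRI + RPostC and 6 in IRI, against 3 and 2 as reported, and 0 lower in both. It also called 41158 of all 65403 probe sets higher in IRI + RPostC and 47009 in IRI, so these counts are not particular to the members. Leaving out 1 array at a time gave 3 to 4 higher and 1 lower in IRI + RPostC against control, 2 to 3 higher and 1 lower in IRI against control, and 0 between IRI + RPostC and IRI. Signs turned after quantile normalization for C1qb in IRI (-0.041), C1qa in IRI + RPostC (-0.059), Serping1 in IRI + RPostC (-1.88), Clu (-2.53 in IRI + RPostC and -2.34 in IRI) and Cr1l between IRI + RPostC and IRI (-0.015), and for Serping1 in IRI after the shift (0.45). Between IRI + RPostC and IRI, differences near 0 turned when array medians were set equal for C1qa (0.033), C3 (5e-04) and Clu (0.019). Leaving out 1 array turned 3 of them, with ranges of -0.053 to 0.059 for C1qa (above 0 without IRI replicate 1 or IRI + RPostC replicate 3), -0.13 to 0.028 for C3 (above 0 without IRI replicate 3 or IRI + RPostC replicate 2) and -0.21 to 0.43 for Thbd (below 0 without IRI replicate 2 or IRI + RPostC replicate 1). The cause was not tested. Deviations from the group means had r = -0.30 to 0.04 between arrays with the same number and -0.35 to 0.40 between arrays with different numbers. The deviations within a group depend on each other, so these values cannot decide whether the numbers pair the samples. With the replicate block, 4 members were higher and 1 lower in IRI + RPostC, 3 and 1 in IRI against control, and 0 between IRI + RPostC and IRI. C3 in both occlusion groups, C5ar1 in IRI and control, and Thbd in control were not above the background limit, which bounds their differences.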
